A study of Drosophila melanogaster with 24 samples.

Results

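The genes described here encode the core of the Imd (immune deficiency) signalling cascade inside the cell: the adaptors imd and Fadd, the caspase Dredd, the kinase Tak1 and its partner Tab2, the kinase-complex subunit key, the ubiquitin enzymes Diap2 and ben, and the inhibitors casp and pirk. They were taken by symbol from the deposited table of read counts per gene, where all 10 were found among 17768 genes, and all 10 passed the filter on low counts that left 13868 genes for testing. RNA was sequenced from whole male Drosophila melanogaster aged 1 to 7 days and kept at 25 °C, as 24 libraries in 6 groups of 4. The groups were homozygous Reldel/Reldel flies injured and uninjured, heterozygous +/Reldel flies injured and uninjured, and wild-type flies injured and uninjured, and all lines are described as yw. Injured flies had received a traumatic brain injury 4 h earlier, and Reldel is a mutant allele of Relish (Rel), the transcription factor on which the Imd cascade ends. The comparisons ask whether injury and Rel dose change the transcript levels of the cascade that lies upstream of Rel. Each genotype is labelled as its own line, so other differences between the lines cannot be told apart from Rel dose. How many flies went into a library, whether libraries of one group came from different cultures, and how much of Rel the allele lacks are not given in the labels. The p-values therefore measure only the spread between these libraries, which may be technical.

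The Imd pathway is one of the main inducible immune pathways of the fly and is known for driving antimicrobial peptide genes in the fat body and gut after bacterial peptidoglycan is sensed by receptors of the PGRP family. The receptors recruit Imd, which binds Fadd and through it the caspase Dredd; Dredd cleaves Imd, and the ubiquitin ligase Diap2, with ubiquitin-conjugating enzymes such as Bendless (ben), builds ubiquitin chains on it. The chains recruit Tab2 with the kinase Tak1, which activates the IκB kinase complex formed by IKKβ and Kenny (key) and also the JNK kinase cascade. Relish is phosphorylated by that complex and cleaved by Dredd, and its free part enters the nucleus. Caspar (casp) acts against the cleavage of Relish, and Pirk, whose gene is a known Relish target, acts against signalling at the receptor and Imd.

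In dm6 coordinates, 6 of the 10 genes lie on chromosome arm 2R and 3 on the X chromosome. On 2R, Diap2 (FBgn0015247) spans 15932170 to 15934825, casp (FBgn0034068) 16024628 to 16028161 and imd (FBgn0013983) 18409796 to 18413599, all on the minus strand. Further along 2R, Tab2 (FBgn0086358) spans 19292529 to 19304508 on the plus strand, and pirk (FBgn0034647) spans 21660967 to 21662995 and key (FBgn0041205) 24785514 to 24787411 on the minus strand. On the X chromosome, Dredd (FBgn0020381) spans 633622 to 635545 on the minus strand, ben (FBgn0000173) 13996345 to 13999805 on the plus strand and Tak1 (FBgn0026323) 20515908 to 20524928 on the minus strand. Fadd (FBgn0038928) spans 22034455 to 22035617 on the plus strand of 3R, within the span of pit on the same strand, with 0 bases of exon shared. Whether reads were counted by strand is not given in the sources used here. The exons shared with genes of the opposite strand are short: 40 bases of imd with GstE9 (2.64% of imd's exonic bases), 29 bases of key with CG3589, 12 bases of Dredd with Mybbp1A and 1 base of Diap2 with bug; if strand was not used, reads there could not be assigned to one of the pair. Dredd also contains the 61 bases of mir-9372 on its own strand.

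Library totals ranged from 6543632 to 14660491 counts. The genes had from 22 to 187 counts per library for pirk, 48 to 141 for Fadd and 82 to 236 for imd, against 635 to 1693 for casp. In the average injury difference pirk had the largest standard error of the 10 genes, 0.186. Fadd, also low in counts, had 0.0787, against 0.0779 for casp. Levels below are CPM, counts scaled to a common normalised library size, and values after ± are the SD over 4 libraries for CPM and the standard error for log2 fold changes. Rel, the mutated gene, had 0, 0, 0 and 0 counts in injured and 1, 0, 0 and 0 counts in uninjured Reldel/Reldel libraries, which matches their labels. It averaged 61.9 ± 19.0 CPM in injured and 38.8 ± 12.4 CPM in uninjured +/Reldel flies, and 145 ± 22.5 CPM in injured and 69.8 ± 9.84 CPM in uninjured wild type. The male accessory gland and testis markers were present in every library, with summed levels of 4013 to 8907 and 1958 to 3181 CPM. A pair of libraries stood apart: injured wild-type replicate 4 had 320.5 CPM summed over 7 female markers, against 1.97 to 7.00 CPM in the other 3 libraries of its group, and injured Reldel/Reldel replicate 1 had 1858 CPM summed over 5 neuron markers, against 666.6 to 866.7 CPM in its group. This Reldel/Reldel library also had the highest male accessory gland sum of its group, 8502 CPM against 4013 to 4844 CPM. Its sum over the gut markers was the lowest of the group, 913.1 CPM against 1670 to 2597 CPM. Results that change without either library of the pair are given with and without it.

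Per unit of transcript length, ben was the most abundant of the 10 genes in uninjured wild-type flies, at 81.5 ± 7.16 TPM, a measure scaled by transcript length and computed here from the transcript counts. Then came casp at 61.1 ± 8.01, Diap2 at 61.0 ± 5.34 and key at 59.9 ± 2.82 TPM, whose ranges over 4 libraries overlapped one another. Dredd stood alone at 26.0 ± 4.23 TPM. It was followed by Tak1 at 17.1 ± 2.79, imd at 12.5 ± 0.665, Tab2 at 12.1 ± 0.817 and Fadd at 11.1 ± 1.54 TPM, where each gene's range overlapped that of the next. The inhibitor pirk was lowest at 4.27 ± 0.640 TPM, below every other gene in every library of the group. The ubiquitin enzymes, the kinase-complex subunit and the inhibitor Caspar were thus at higher levels than the adaptors and the Tak1-Tab2 pair.

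After injury, transcript levels called higher were those of pirk in all 3 genotypes, Tab2 in the mutant genotypes and Tak1 and key in Reldel/Reldel flies. Also called higher were imd in +/Reldel flies and Dredd in wild type, and no gene of the 10 was called lower. A call in a single genotype does not mark a difference between genotypes. For the injury difference of either mutant genotype minus that of wild type, 0 of the 10 genes were called. The log2 fold changes of imd, Dredd, Tak1 and Tab2 lay between 0.25 and 0.56 in all 3 genotypes. By edgeR's quasi-likelihood test at a Benjamini-Hochberg adjusted p under 0.05, 4 of 10 genes rose in Reldel/Reldel flies, where 4.71% of all tested genes were called higher and 1.15% lower (5.86% in either direction). In +/Reldel flies 3 of 10 rose, against 3.24% of all tested genes higher and 1.5% lower (4.74% in either direction), and in wild type 2 of 10 rose, against 3.35% higher and 0.433% lower (3.79% in either direction). With the 3 injury differences averaged, 6 of 10 rose (imd, Dredd, Tak1, Tab2, key and pirk), against 11.6% of all tested genes called higher and 6.71% lower (18.3% in either direction). The median log2 fold change of the 10 genes in that average was 0.24, against -0.01 for all tested genes, with medians of 0.30, 0.27 and 0.24 in Reldel/Reldel, +/Reldel and wild-type flies. All 4 injured libraries lay outside the range of the 4 uninjured ones for 5 genes in Reldel/Reldel flies (11.6% of all tested genes), 4 genes in +/Reldel flies (8.32%) and 4 genes in wild type (13.0%). The calls within a genotype changed with the libraries fitted: with only the 8 libraries compared, 0 genes rose in Reldel/Reldel, 1 (pirk) in +/Reldel and 2 (pirk and Tab2) in wild-type flies.

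**Figure D1:**
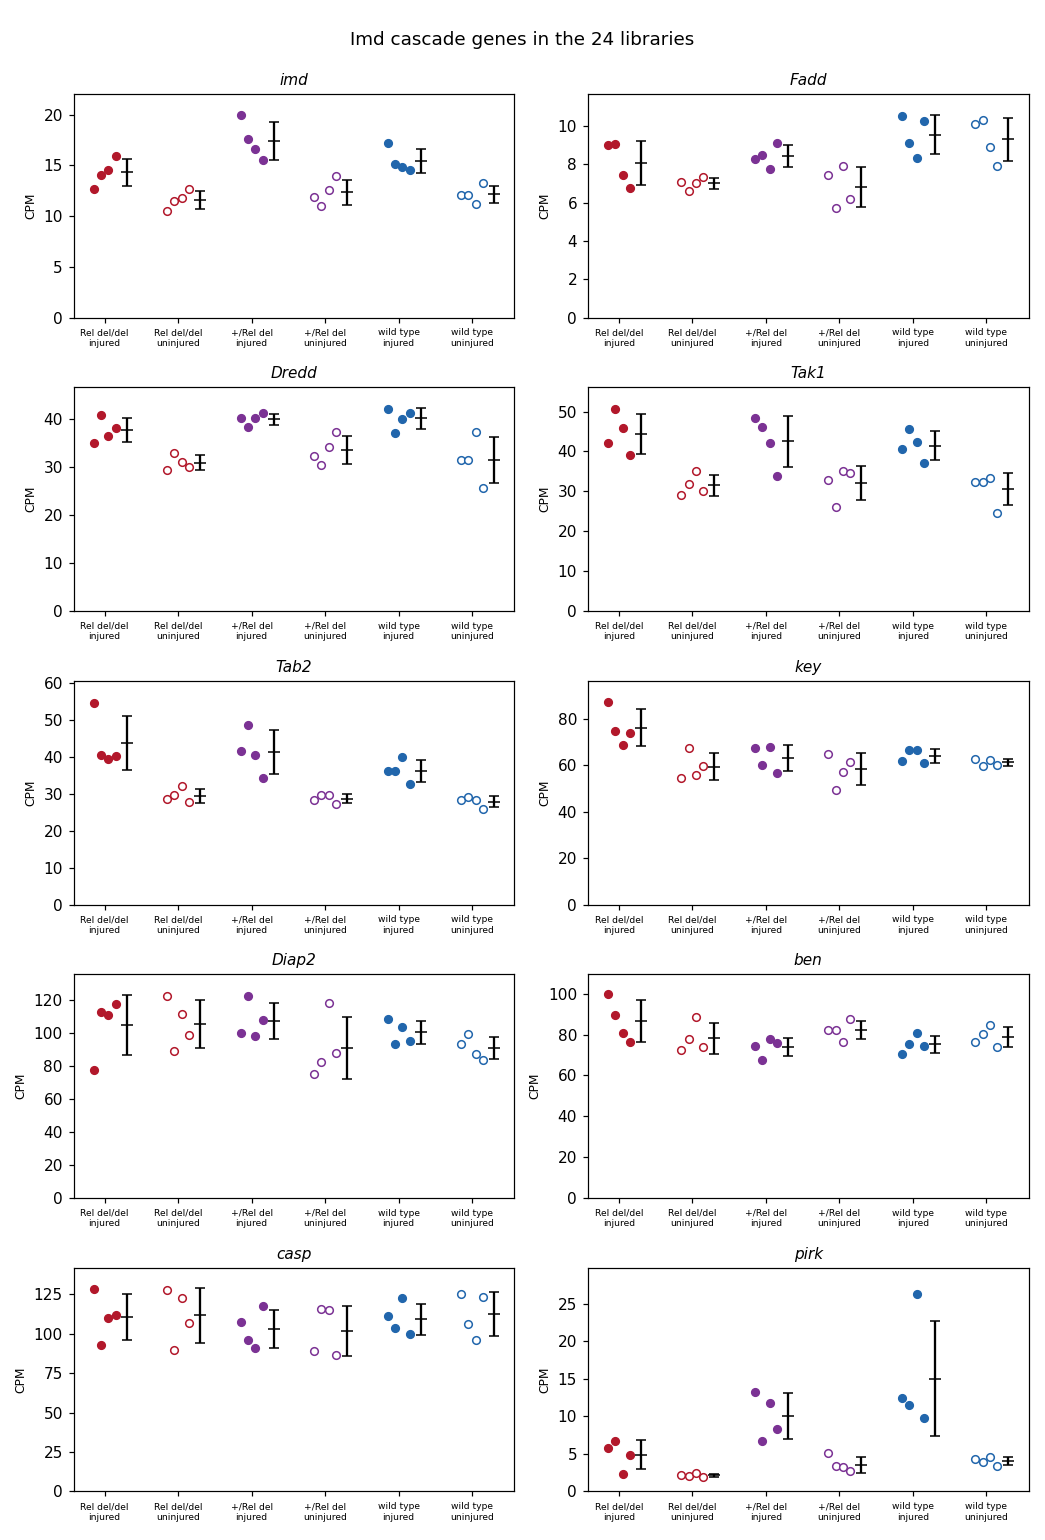
CPM of each of the 10 genes in each library (points; filled for injured, open for uninjured flies), with the mean and SD of 4 libraries beside them; each panel has its own vertical axis starting at 0. For pirk the injured wild-type libraries reach 26.4 CPM and the uninjured Reldel/Reldel ones stay at or below 2.396 CPM, while ben and casp show overlapping points in the groups.

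**Figure D2:**
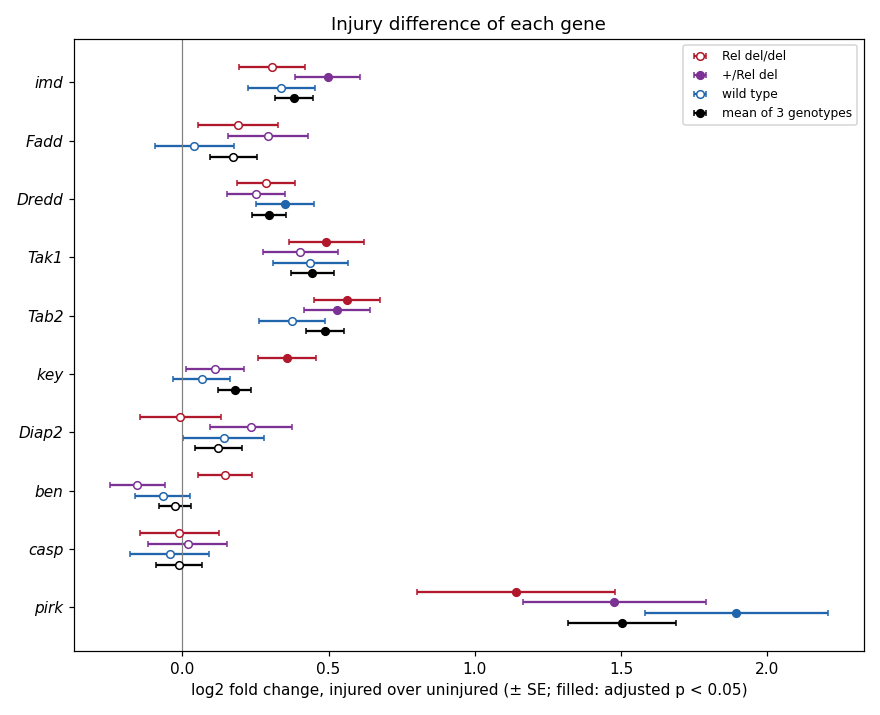
Log2 fold change of injured over uninjured flies for each gene, per genotype and averaged over the 3 genotypes, with standard errors; filled points have an adjusted p under 0.05. In the average, pirk stands farthest to the right and Tab2, Tak1, imd, Dredd and key lie between 0.18 and 0.49, while ben and casp sit near 0.

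Among the adaptors, imd had 12.7, 14.04, 14.6 and 15.9 CPM in the 4 injured Reldel/Reldel libraries, against 10.5, 11.5, 11.8 and 12.7 CPM in the uninjured ones. In +/Reldel flies it had 19.95, 17.6, 16.6 and 15.5 CPM after injury, against 11.9, 11.0, 12.6 and 13.9 CPM without. In wild type it had 17.2, 15.1, 14.8 and 14.6 CPM after injury, against 12.1, 12.1, 11.2 and 13.3 CPM without. In each genotype every injured library lay above every uninjured one, although in Reldel/Reldel flies the nearest values almost touched (12.71 and 12.66 CPM). The log2 fold change was 0.31 ± 0.11 in Reldel/Reldel (adjusted p = 0.110), 0.50 ± 0.11 in +/Reldel (adjusted p = 0.00922) and 0.34 ± 0.11 in wild type (adjusted p = 0.108), of which the +/Reldel value passed the test and did so with any one library left out. Averaged over genotypes imd rose by 0.38 ± 0.07 on the log2 scale, which is 1.30-fold (adjusted p = 0.000170). Fadd, the link between Imd and Dredd, ranged from 6.76 to 9.07 CPM in injured and 6.62 to 7.31 CPM in uninjured Reldel/Reldel flies, from 7.75 to 9.13 and 5.72 to 7.91 CPM in +/Reldel, and from 8.31 to 10.5 and 7.92 to 10.3 CPM in wild type. These ranges overlapped within every genotype, and the mean injury difference of Fadd, 0.17 ± 0.08, did not pass (adjusted p = 0.124, 95% interval 0.01 to 0.34).

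Dredd, the caspase that cleaves both Imd and Relish, had 35.0, 40.8, 36.3 and 38.1 CPM in injured and 29.4, 32.9, 30.9 and 30.0 CPM in uninjured Reldel/Reldel flies. It had 40.1, 38.4, 40.1 and 41.1 CPM in injured and 32.2, 30.3, 34.1 and 37.3 CPM in uninjured +/Reldel flies, and 42.0, 37.1, 40.0 and 41.3 CPM in injured and 31.5, 31.5, 37.2 and 25.6 CPM in uninjured wild type. Injured and uninjured libraries were separate in both mutant genotypes and overlapped in wild type, where uninjured replicate 3 (37.2 CPM) exceeded injured replicate 2. The log2 fold change was 0.29 ± 0.10 in Reldel/Reldel (adjusted p = 0.0901), 0.25 ± 0.10 in +/Reldel (adjusted p = 0.154) and 0.35 ± 0.10 in wild type (adjusted p = 0.0485). The wild-type call is fragile: the adjusted p was 0.0165 without uninjured replicate 3, but 0.0562 to 0.285 without any other one of the 8 libraries (0.116 without injured replicate 4, the library with female markers). It was also 0.0617 with size factors of the DESeq type, 0.0541 without the low-count filter and 0.0759 with a replicate block. The average over genotypes, 0.30 ± 0.06 (adjusted p = 0.000668), passed with any one library left out.

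Tak1, the kinase that passes the signal to both the IκB kinase complex and JNK, had 42.2, 50.6, 46.0 and 39.0 CPM in injured and 29.2, 31.8, 35.1 and 30.0 CPM in uninjured Reldel/Reldel flies, with no overlap. It had 48.3, 46.1, 42.0 and 33.8 CPM in injured and 32.9, 26.0, 35.2 and 34.5 CPM in uninjured +/Reldel flies, where the lowest injured library fell within the uninjured range. In wild type it had 40.6, 45.7, 42.3 and 37.0 CPM in injured and 32.2, 32.3, 33.3 and 24.6 CPM in uninjured flies, again with no overlap. The log2 fold changes were alike in size: 0.49 ± 0.13 in Reldel/Reldel (adjusted p = 0.0212), 0.40 ± 0.13 in +/Reldel (adjusted p = 0.0703) and 0.44 ± 0.13 in wild type (adjusted p = 0.0572), of which the first passed the test; with DESeq2 all 3 genotypes passed (adjusted p = 0.00748, 0.0419 and 0.0400). The Reldel/Reldel call by edgeR held without injured replicate 1 (adjusted p = 0.0280), injured replicate 4 (0.0123) or uninjured replicate 3 (0.0215) and was lost without any other one of the 8 libraries (0.0524 to 0.0781). The +/Reldel difference passed without injured replicate 4 (0.0265) or uninjured replicate 3 (0.0431). Averaged over genotypes Tak1 rose by 0.44 ± 0.07 on the log2 scale (adjusted p = 0.000113), a call kept with any one library left out.

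Tab2, the ubiquitin-binding partner of Tak1, had 54.7, 40.5, 39.5 and 40.2 CPM in injured and 28.6, 29.6, 32.2 and 27.7 CPM in uninjured Reldel/Reldel flies. It had 41.6, 48.8, 40.7 and 34.3 CPM in injured and 28.3, 29.6, 29.8 and 27.2 CPM in uninjured +/Reldel flies, and 36.2, 36.2, 40.0 and 32.7 CPM in injured and 28.3, 29.3, 28.4 and 25.8 CPM in uninjured wild type. Every injured library lay above every uninjured library of its genotype, and the lowest injured value of all 12 (32.7 CPM) lay above the highest uninjured value (32.2 CPM). Tab2 rose by 0.56 ± 0.11 in Reldel/Reldel flies (adjusted p = 0.00288) and by 0.53 ± 0.11 in +/Reldel flies (adjusted p = 0.00586), while in wild type the log2 fold change of 0.38 ± 0.11 did not pass (adjusted p = 0.0680). Without injured Reldel/Reldel replicate 1, which held the highest Tab2 value, the homozygous difference was 0.44 with an adjusted p of 0.0100. The average over genotypes was 0.49 ± 0.07, or 1.40-fold (adjusted p = 6.91e-06).

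The IκB kinase subunit key passed the test in Reldel/Reldel flies, where it had 87.4, 75.0, 68.7 and 74.0 CPM in injured and 54.6, 67.4, 56.1 and 59.6 CPM in uninjured libraries, with no overlap. In +/Reldel flies it had 67.4, 60.3, 68.0 and 56.7 CPM in injured and 65.1, 49.3, 57.4 and 61.7 CPM in uninjured libraries, and in wild type 61.9, 66.7, 66.8 and 61.3 CPM in injured and 62.6, 60.0, 62.4 and 60.4 CPM in uninjured libraries. The ranges overlapped in these genotypes. Its log2 fold change was 0.36 ± 0.10 in Reldel/Reldel (adjusted p = 0.0316), against 0.11 ± 0.10 in +/Reldel (adjusted p = 0.592) and 0.07 ± 0.10 in wild type (adjusted p = 0.817). The homozygous call held without injured replicate 3 (adjusted p = 0.0238), injured replicate 4 (0.0274) or uninjured replicate 2 (0.0202). Without any other one of the 8 libraries it was 0.0523 to 0.101, with 0.0948 without injured replicate 1, the library with high neuron markers. The average over genotypes, 0.18 ± 0.06 (adjusted p = 0.0309), was lost without uninjured wild-type replicate 4 (0.0551), injured +/Reldel replicates 1 (0.0532) or 3 (0.0517), uninjured +/Reldel replicate 2 (0.0594) or uninjured Reldel/Reldel replicate 1 (0.0538).

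The ubiquitin enzymes and Caspar did not pass the test after injury in any genotype. Diap2, the ubiquitin ligase of the pathway, ranged from 77.7 to 118 CPM in injured and 89.2 to 122 CPM in uninjured Reldel/Reldel flies, from 98.4 to 122 and 75.4 to 118 CPM in +/Reldel and from 93.5 to 109 and 83.7 to 99.3 CPM in wild type. Its mean injury difference was 0.12 ± 0.08 (adjusted p = 0.301, 95% interval -0.04 to 0.29). For the ubiquitin-conjugating enzyme ben the ranges were 76.5 to 99.8 CPM in injured and 72.4 to 88.9 CPM in uninjured Reldel/Reldel flies, 67.7 to 77.9 and 76.5 to 87.8 CPM in +/Reldel and 70.3 to 80.8 and 73.8 to 84.9 CPM in wild type. Its mean difference of -0.02 ± 0.05 has a 95% interval of -0.14 to 0.09, so a change of the size seen for Tab2 lies outside it. Caspar, the inhibitor of Relish cleavage, ranged from 92.9 to 129 and 89.6 to 128 CPM in injured and uninjured Reldel/Reldel flies, from 90.9 to 118 and 86.5 to 116 CPM in +/Reldel and from 100.2 to 123 and 96.2 to 125 CPM in wild type, with a mean difference of -0.01 ± 0.08 (95% interval -0.17 to 0.15). In all 3 genes injured and uninjured libraries overlapped in each genotype.

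The inhibitor pirk showed the largest injury difference of the 10 genes in every genotype. It had 5.74, 6.73, 2.30 and 4.88 CPM in injured and 2.19, 2.07, 2.396 and 1.96 CPM in uninjured Reldel/Reldel flies. In +/Reldel flies it had 13.3, 6.71, 11.8 and 8.31 CPM after injury and 5.11, 3.34, 3.20 and 2.68 CPM without, and in wild type 12.5, 11.5, 26.4 and 9.75 CPM after injury and 4.26, 3.87, 4.55 and 3.34 CPM without. The injured libraries were all above the uninjured ones in +/Reldel and wild-type flies, whereas in Reldel/Reldel flies injured replicate 3 fell inside the uninjured range. The log2 fold change was 1.14 ± 0.34 in Reldel/Reldel (adjusted p = 0.0475), 1.48 ± 0.31 in +/Reldel (adjusted p = 0.00562) and 1.89 ± 0.31 in wild type (adjusted p = 0.000490), or 2.20-, 2.78- and 3.72-fold in that order. Of these, the homozygous call passed without injured replicate 3 (log2 fold change 1.41, adjusted p = 0.0101) and was lost without any other one of the 8 libraries (0.0530 to 0.144; 0.122 without injured replicate 1), and also without the low-count filter (0.0520). Without injured replicate 3, the highest library, the wild-type fold change was 1.48 on the log2 scale (adjusted p = 0.00298). The heterozygous and wild-type calls passed with any one library left out.

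Summed markers of fat body and hemocytes had lower medians in injured than in uninjured libraries of each genotype. The summed level of 6 fat body markers ranged from 725.6 to 896.3 CPM in injured and 772.0 to 1268 CPM in uninjured Reldel/Reldel flies, from 576.8 to 684.4 and 708.8 to 1315 CPM in +/Reldel, and from 596.4 to 976.7 and 784.1 to 1164 CPM in wild type. For 8 hemocyte markers the ranges were 87.4 to 132 CPM in injured and 114 to 179 CPM in uninjured Reldel/Reldel flies, 129.5 to 157 and 159.7 to 299.6 CPM in +/Reldel, and 112 to 189 and 144 to 226 CPM in wild type. In +/Reldel flies injured and uninjured libraries did not overlap for either list. Members of the lists went both ways: apolpp and FASN1, which make up most of the fat body sum, had lower means after injury in each genotype, while Lsd-1 (44.8 and 31.7 CPM in injured and uninjured Reldel/Reldel, 38.5 and 25.1 in +/Reldel, 45.8 and 30.8 in wild type) and Lsp2 had higher ones, as did PPO2 of the hemocyte list. Every marker of both lists was detected, although Fbp1 of the fat body list and He of the hemocyte list averaged below 1 CPM in each group. For 6 gut markers the medians were higher after injury, at 2020 CPM in injured and 1785 CPM in uninjured Reldel/Reldel flies, 1375 and 967.0 CPM in +/Reldel and 788.5 and 514.1 CPM in wild type, with overlapping ranges. The gut list also went both ways: Amy-p and Mal-A1 had higher means after injury in each genotype, and Jon99Ci and LManII lower ones. Means of alphaTry and betaTry were higher after injury in +/Reldel and wild-type flies and lower in Reldel/Reldel flies. For 6 eye markers the ranges were 4303 to 6639 CPM in injured and 4436 to 5340 CPM in uninjured Reldel/Reldel flies, 3308 to 5791 and 4971 to 7499 CPM in +/Reldel, and, without overlap, 4442 to 5182 and 5601 to 8805 CPM in wild type. The part of these shifts in the injury differences was not tested, and in whole flies fewer cells of a type cannot be told apart from less RNA per cell.

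Between Rel genotypes 1 of the 10 genes differed: pirk was lower in injured Reldel/Reldel flies than in injured wild type, where 2.35% of all tested genes were called lower and 1.93% higher (4.28% in either direction). The pirk values were 2.30 to 6.73 CPM in injured Reldel/Reldel and 9.75 to 26.4 CPM in injured wild-type flies, without overlap, and the log2 fold change was -1.64 ± 0.31 (adjusted p = 0.00180). It remained past the threshold with any one library left out, from -1.83 to -1.22, the smallest difference being that without injured wild-type replicate 3 (adjusted p = 0.0107). Fitted on only the 8 libraries compared, it did not pass (adjusted p = 0.0564). The +/Reldel flies lay between, at 6.71 to 13.3 CPM after injury, overlapping both the Reldel/Reldel and the wild-type ranges. Their log2 fold change against injured wild type was -0.57 ± 0.29 (adjusted p = 0.870), or -0.15 without injured wild-type replicate 3.

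In uninjured flies pirk had 1.96 to 2.396 CPM in Reldel/Reldel and 3.34 to 4.55 CPM in wild type, again without overlap, but the log2 fold change of -0.88 ± 0.34 did not pass over all genes (adjusted p = 0.200); it passed when only these 8 libraries were fitted (0.0236). No gene of the 10 was called between uninjured Reldel/Reldel and wild-type flies by edgeR or DESeq2. Of all tested genes edgeR called 3.96% (1.99% higher and 1.97% lower). An unadjusted p under 0.05 was reached by 2 of the 10 (pirk and Fadd), against 1823 of all 13868 tested genes. Between +/Reldel and wild-type flies 0 of 10 were called by either tool, uninjured or injured. Of all tested genes edgeR called 0.498% uninjured (0.389% higher and 0.108% lower) and 0.296% injured (0.216% higher and 0.0793% lower). An unadjusted p under 0.05 was reached by 1 of the 10 uninjured (Fadd), against 1323 of all 13868 tested genes, and by 0 injured, against 820.

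**Figure D3:**
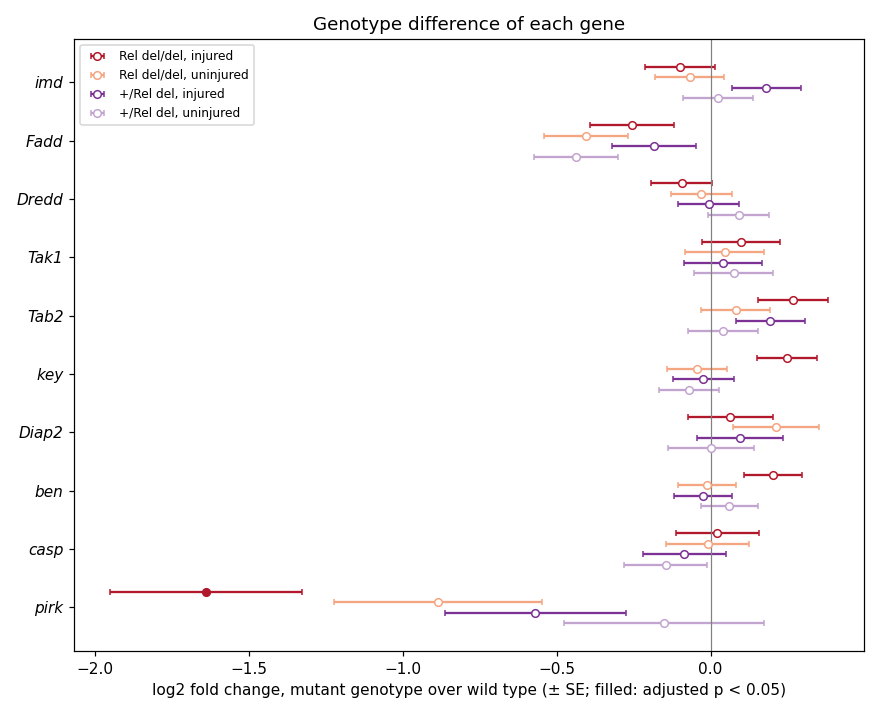
Log2 fold change of each mutant genotype over wild type for each gene, in injured and uninjured flies, with standard errors; filled points have an adjusted p under 0.05. The single filled point is pirk in injured Reldel/Reldel flies at -1.64, and the Fadd points lie between -0.44 and -0.18.

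Fadd was the other gene whose uninjured libraries separated by genotype. It had 7.08, 6.62, 7.04 and 7.31 CPM in Reldel/Reldel, 7.44, 5.72, 7.91 and 6.20 CPM in +/Reldel and 10.1, 10.3, 8.87 and 7.92 CPM in wild-type uninjured flies. Every library of either mutant genotype lay below every wild-type library, although the highest +/Reldel value (7.91 CPM) and the lowest wild-type value (7.92 CPM) almost touched. The log2 fold changes were -0.40 ± 0.14 for Reldel/Reldel (adjusted p = 0.119) and -0.44 ± 0.14 for +/Reldel (adjusted p = 0.234), so neither passed over all genes. After injury they were -0.25 ± 0.14 and -0.18 ± 0.14, and the ranges overlapped. The comparisons of both mutant genotypes share the wild-type libraries. The injured key levels also separated, at 68.7 to 87.4 CPM in Reldel/Reldel and 61.3 to 66.8 CPM in wild-type flies, with a log2 fold change of 0.25 ± 0.10 that did not pass (adjusted p = 0.188). Between uninjured Reldel/Reldel and wild-type flies 2 of 10 genes did not overlap, against 10.4% of all tested genes, and after injury 2 of 10, against 8.8%. Between +/Reldel and wild-type flies the count was 1 of 10 uninjured, against 5.59%, and 0 of 10 injured, against 3.89%.

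The injury differences themselves were not shown to depend on Rel genotype. For Reldel/Reldel minus wild type, 0 of 10 genes and 0 of all 13868 tested genes (0%) were called by edgeR, with 1 of the 10 genes (key) and 647 genes in all at an unadjusted p under 0.05; DESeq2 called 0 of the 10 and 3 genes in all. The difference was 0.29 ± 0.14 for key (adjusted p = 0.934, 95% interval 0.00 to 0.58) and -0.75 ± 0.46 for pirk (adjusted p = 0.934, 95% interval -1.71 to 0.20). The pirk interval includes both no difference and a loss of more than 1 log2 unit of the injury response. For +/Reldel minus wild type, edgeR called 0 of 10 genes and 0 genes in all (0%), with 0 of the 10 and 363 genes in all at an unadjusted p under 0.05, and DESeq2 called 0 of the 10. For pirk that difference was -0.42 ± 0.44 (95% interval -1.32 to 0.49), and 0.00 without injured wild-type replicate 3. For the other 9 genes it lay between -0.10 and 0.25.

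Across the 6 groups, pirk and Rel levels ran in the same order within each injury state. Injured flies had 4.91 ± 1.90 CPM of pirk in Reldel/Reldel, 10.02 ± 3.03 CPM in +/Reldel and 15.03 ± 7.63 CPM in wild type. Uninjured flies had 2.15 ± 0.187, 3.58 ± 1.06 and 4.01 ± 0.524 CPM in these genotypes. The neighbours +/Reldel and wild type overlapped in both states. Wild-type injured replicate 3 had both the highest pirk value (26.4 CPM) and the highest Rel value (172 CPM) of all libraries. In the injured Reldel/Reldel libraries pirk reached 2.30 to 6.73 CPM with 0 Rel counts. No correlation over all libraries is given, since Rel is at or near 0 in all 8 Reldel/Reldel libraries.

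**Figure D4:**
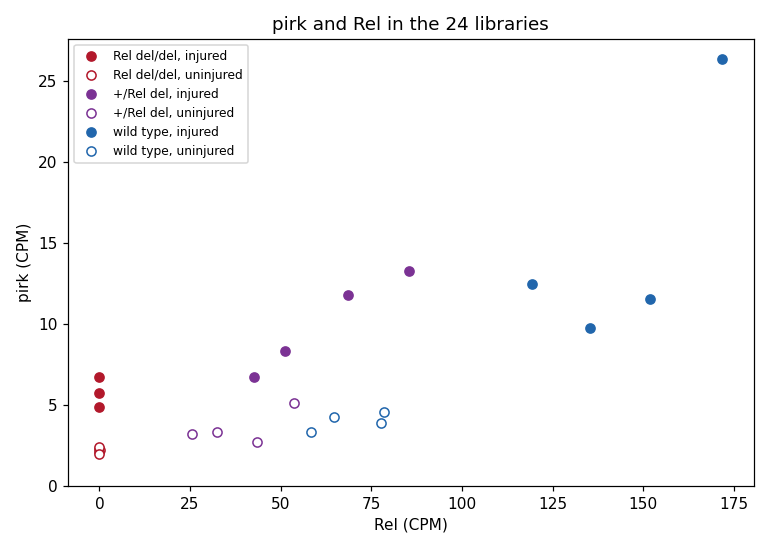
pirk against Rel in CPM, one point per library, coloured by genotype and filled for injured flies. The 8 Reldel/Reldel libraries stand at 0 or 0.0997 CPM of Rel with pirk between 1.96 and 6.73 CPM, and the injured wild-type libraries have 9.75 to 26.4 CPM of pirk.

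The deposited transcript table divides each gene's reads among its annotated transcripts by the authors' estimate, and none of the genes' transcripts that could be tested passed the edgeR usage test over 18967 transcripts, either after injury (0.886% of all tested transcripts called) or between Reldel/Reldel and wild-type flies (1.46%). The transcripts of pirk, Fadd-RA and Dredd-RD were not among those tested. An unadjusted p under 0.05 was reached by 2 of their transcripts after injury (Tab2-RA and Tab2-RB) and by 0 between genotypes. Tak1-RB, of 1650 nucleotides against 3391 for Tak1-RA, took 50.2 ± 4.99% of Tak1 counts in injured and 34.8 ± 7.56% in uninjured Reldel/Reldel flies, 47.7 ± 4.63% and 36.0 ± 6.90% in +/Reldel, and 49.1 ± 2.68% and 34.7 ± 4.36% in wild type. In wild type the ranges were apart, at 46.4 to 52.8% in injured and 30.0 to 38.8% in uninjured libraries, but the usage change after injury in the mean of the 3 genotypes, 0.34 (log2), did not pass (adjusted p = 1.00). Tab2-RB took 29.7 ± 4.57% of Tab2 counts in injured and 9.20 ± 2.48% in uninjured Reldel/Reldel flies, which did not overlap, 21.1 ± 9.98% and 14.3 ± 7.02% in +/Reldel, and 30.9 ± 11.0% and 19.0 ± 6.07% in wild type. Its usage change after injury in the same test was 0.70 (log2, adjusted p = 0.399). The test of Reldel/Reldel over wild type gave usage changes of 0.01 for Tak1-RB and -0.39 for Tab2-RB (adjusted p = 1.00 for each).

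**Figure D5:**
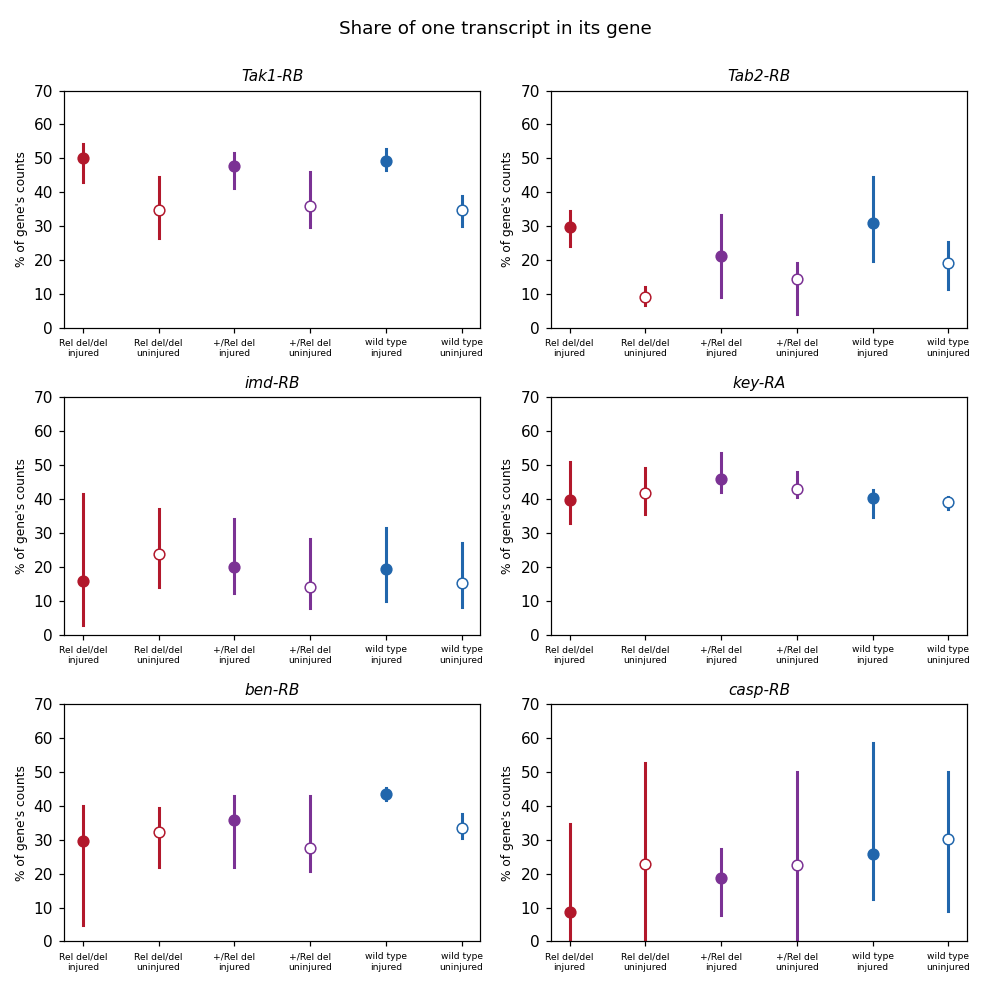
Share of one transcript in its gene's counts, in percent, for 6 transcripts; points are group means of 4 libraries (filled for injured, open for uninjured flies) and bars span the lowest to the highest library. The Tak1-RB means stand at 47.7 to 50.2% in injured and 34.7 to 36.0% in uninjured flies, while casp-RB reaches from 0 to 52.7% among uninjured Reldel/Reldel libraries.

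The transcripts of the other genes gave no common direction. The main form of imd, imd-RA, held 83.3% of imd counts over all libraries, Dredd-RF 73.1% of Dredd, Diap2-RA 75.4% of Diap2 and pirk-RA 98.2% of pirk, while Fadd has a single annotated transcript. ben-RB held 43.4 ± 1.54% of ben counts in injured and 33.6 ± 3.17% in uninjured wild type, but 29.6 ± 16.5% and 32.3 ± 8.18% in injured and uninjured Reldel/Reldel flies. casp-RB, with the same annotated length as casp-RA, was listed at 0 counts in 3 of 4 injured Reldel/Reldel libraries and held 34.7% of casp counts in the remaining one, replicate 3. Without that library casp-RB passed in both usage tests, at a log2 change of -2.71 after injury (adjusted p = 0.00318) and -4.03 in Reldel/Reldel over wild type (adjusted p = 0.000443), whereas with it the values were -0.46 and -0.66 (adjusted p = 1.00 for each).

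The genes whose levels ran most like each of the 10 over the 24 libraries are given as a description, by Pearson's r of log2(CPM + 0.5) among 13181 genes. Libraries of a group share treatment and genotype, and all r values share the same normalisation. For pirk these were the antimicrobial peptide genes AttB (r = 0.94) and AttC (0.93) and then CG10140 (0.91), and AttB reads can be split with near-identical Attacin copies. For Tab2 they were HDAC4 (0.96), Vinc (0.95), the vinculin gene, and puc (0.95), the JNK phosphatase, and for Tak1 vari (0.92), GILT1 (0.91) and SNF4Agamma (0.91), a subunit of AMP-activated kinase. The closest to imd was CG10916 (0.84) and to Dredd babos (0.86). For Diap2, casp, ben and Fadd, which did not pass in any comparison, the closest were CG4390 (0.95), dikar (0.94), CARPA (0.83) and CG4496 (0.75). The closest to key was CG12991 (0.88).

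Other genes, of the pathway or linked to it, were followed as lists. Of 24 further intracellular Imd genes, 6 rose and 1 fell in the average over genotypes (11.6% and 6.71% of all tested genes), with a median log2 fold change of 0.08. IKKbeta, the catalytic subunit that works with Kenny, rose by 0.38 ± 0.08 (adjusted p = 0.00171), and by 0.60 ± 0.14 in Reldel/Reldel flies (adjusted p = 0.0101). The inhibitor dnr1 rose by 0.26 ± 0.07 (adjusted p = 0.0171) and smt3, which encodes SUMO, by 0.26 ± 0.08 (adjusted p = 0.0246), and the others that rose were POSH, sick and zfh1. The deubiquitinase CYLD was lower, with a log2 fold change of -0.22 ± 0.07 (adjusted p = 0.0272). Rel itself rose in wild type by 1.05 ± 0.22 (adjusted p = 0.00603), with 0.67 ± 0.22 in +/Reldel flies (adjusted p = 0.0865).

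Of 10 tested sensors and peptidoglycan amidases, 6 rose in the average and none fell (11.6% and 6.71% of all tested genes), with a median of 0.38. PGRP-LC, the main receptor of the pathway, rose by 0.37 ± 0.09 (adjusted p = 0.00769), close in size to imd. PGRP-SB1 rose by 2.74 ± 0.27 (adjusted p = 9.27e-08), PGRP-SD by 2.66 ± 0.26 (adjusted p = 5.49e-08) and the amidase PGRP-LB, like Pirk a brake on the pathway, by 1.36 ± 0.11 (adjusted p = 3.22e-09). In injured Reldel/Reldel flies 4 of the 10 were lower than in injured wild type, like pirk, and 0 higher (2.35% and 1.93% of all tested genes). Among these, the log2 fold change was -3.21 ± 0.45 for PGRP-SB1 (adjusted p = 5.14e-05), -0.86 ± 0.18 for PGRP-LB (0.00505) and -5.05 ± 1.17 for PGRP-SC1b (0.0108). PGRP-SD rose after injury by 3.45 ± 0.48 in Reldel/Reldel, 2.11 ± 0.42 in +/Reldel and 2.42 ± 0.42 in wild-type flies. Of 9 genes of JNK signalling, the kinase cascade that Tak1 also feeds, 5 rose and 1 fell in the average (against the same 11.6% and 6.71%), with a median of 0.34. The phosphatase puc rose by 0.98 ± 0.10 (adjusted p = 1.95e-07), the transcription factor genes Jra and kay by 0.54 ± 0.07 (adjusted p = 1.88e-06) and 0.61 ± 0.11 (adjusted p = 0.000296), and hep and msn were the others. The JNK gene bsk was lower, with a log2 fold change of -0.22 ± 0.07 (adjusted p = 0.0357). Among 14 tested antimicrobial peptide genes, 11 rose in the average and 0 fell (11.6% and 6.71% of all tested genes). In Reldel/Reldel flies 7 of the 14 rose after injury (4.71% of all tested genes). Among these, Mtk rose by 5.91 ± 0.68 (adjusted p = 6.23e-06), Drs by 3.33 ± 0.44 (3.69e-05) and AttA by 6.59 ± 0.89 (4.22e-05). Which pathway drove these rises was not tested. Against wild type, 10 were lower in injured Reldel/Reldel flies (2.35% of all tested genes) and 11 in uninjured ones (1.97%).

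In the authors' deposited table, whose log2 fold changes run as uninjured over injured and wild type over mutant, pirk had an FDR under 0.05 in more comparisons than any other of the 10 genes. After injury it passed in each genotype in the authors' deposited table, together with Tab2 in Reldel/Reldel flies (log2 -0.58 uninjured over injured, FDR 0.0408) and Tak1 in wild type (-0.48, FDR 0.0127), while imd, Dredd and key passed in none. For wild type over Reldel/Reldel flies, the authors' deposited table gives pirk at 1.61 after injury (FDR 0.000181) and 0.86 without injury (FDR 0.0215). It gives 0 of the 10 genes with an FDR under 0.05 for +/Reldel flies against wild type in either injury state.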

How the data were processed

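Per the labels' protocols, whole-fly RNA was prepared as Illumina TruSeq libraries. The submitters' processing notes list build dm6 and the programs edgeR 3.10.5, RSEM 1.2.22, STAR 2.4.2a and CASAVA; the annotation and the use of strand are not given in the sources used here. The authors deposited RSEM expected counts per gene and per transcript (all values were whole numbers, so rounding changed none) and tables of their own comparisons with log2 fold changes and FDR-adjusted p-values. Of the deposited columns, 0 belonged to other samples. Coordinates are those of Ensembl release 115, in dm6.

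Gene counts were tested with edgeR 4.0.16 in R 4.3.3 (quasi-likelihood F-test, two-sided), with TMM factors, the filterByExpr filter, which kept 13868 genes, and a model with 1 mean for each group fitted to the 24 libraries together (18 residual degrees of freedom). Benjamini-Hochberg adjustment ran over all tested genes in each of 10 comparisons: injury in each genotype and averaged over them, each mutant genotype against wild type in each injury state, and the injury difference of each mutant genotype minus that of wild type. Transcript usage was tested with diffSpliceDGE on the same design for 2 comparisons. TPM were computed from transcript counts and annotated lengths. Totals of 6543632 to 14660491 counts per library set the counting error of the lowest genes. The fits were also run on simulated counts with known changes. Those changes were larger than the differences called here for genes other than pirk, and differences in library makeup were not simulated. Alternatives were DESeq2 1.42.0, size factors of the DESeq type, no low-count filter, only the groups compared, a replicate block and leaving out each library.

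The 10 genes were set by symbol. Of each other list, up to 3 called genes by smallest adjusted p were to be named in a comparison, with Rel, the 3 genes of highest Pearson r with each of the 10 and transcripts with at least 10% of a gene's counts; PGRP-LC, POSH, sick, zfh1, CYLD, hep, msn and bsk were named after their values were seen. The genes and lists were chosen with earlier results of these data known. Sequences of the genes were not used here.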

Additional observations from a re-analysis of the deposited data

Results flagged for a closer look

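Of 60 sets of 4 libraries examined (each gene in each group), 4 held a library whose gap to the nearest other was a larger share of the group's range than Dixon's 95% critical value, and chance alone marks about 1 in 20 such sets. For Tab2 the highest injured Reldel/Reldel library, replicate 1, had 54.7 CPM, against 39.5 to 40.5 CPM in the other 3. For Diap2 the lowest injured Reldel/Reldel library, the same replicate 1, had 77.7 CPM, against 111 to 118 CPM in the others. For pirk the highest injured wild-type library, replicate 3, had 26.4 CPM, against 9.75 to 12.5 CPM in the others. For Tak1 the lowest uninjured wild-type library, replicate 4, had 24.6 CPM, against 32.2 to 33.3 CPM in the others.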

How the results depend on the processing

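None of the 16 called differences of the 10 genes changed its direction under the alternatives run, while 28 of the 84 differences that did not pass, and 16 of 44 usage changes, took the other sign under at least 1 of them. Of the 16 calls of the 10 genes over the 10 comparisons, 16 were kept under DESeq2, 15 with size factors of the DESeq type, 14 without the low-count filter, 15 with the replicate block and 11 with each library left out in turn. DESeq2 also called Tak1 in +/Reldel and wild-type flies after injury. Fitted on only the groups compared, 2 of the 10 calls that allow such a fit were kept (pirk after injury in +/Reldel and in wild type). The cause was not tested.

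For injury in wild type, the count of the 10 genes called higher was 2, but 1 with size factors of the DESeq type and 1 without the low-count filter; with a library left out it was 1 to 2, and of all genes 302 to 450, against 525 (302 without uninjured replicate 4). For injury in +/Reldel flies the count was 3, but 1 on only the groups compared, where 278 of all genes were called against 658; with a library left out these were 3 to 4 and 380 to 1495 (380 without uninjured replicate 1, 382 without injured replicate 2 and 1495 without uninjured replicate 3). For injury in Reldel/Reldel flies the count was 4, but 0 on only the groups compared, where 353 of all genes were called against 813; with a library left out these were 1 to 3 and 484 to 1582 (1582 without injured replicate 4, and 538, 515 and 484 without uninjured replicates 1, 2 and 4). Averaged over genotypes, leaving out a library gave 5 to 6 of the 10 genes and 2063 to 3024 of all genes.

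Between genotypes on only the groups compared, the 10 genes held 0 calls for injured Reldel/Reldel against wild-type flies, where 284 of all genes were called against 594 (433 to 739 with a library left out), and 1 call, pirk, for the uninjured ones (all genes 407 to 575 with a library left out). For uninjured +/Reldel against wild type, all genes called numbered 69, but 33 on only the groups compared, 142 under DESeq2 and 33 to 150 with a library left out (150 without uninjured +/Reldel replicate 3, and 33 to 45 without any other). For the injured ones they numbered 41, but 21 on only the groups compared, 72 under DESeq2 and 24 to 39 with a library left out (24 without injured +/Reldel replicate 2 and 26 without injured wild-type replicate 4). DESeq2 called 3 genes, none of the 10, for the injury difference of Reldel/Reldel minus wild type. In the usage tests, leaving out a library gave 0 to 1 transcripts of the 10 genes in both, and 135 to 228 and 245 to 290 of all transcripts.

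The replicate numbers in the titles were not treated as pairs in the main fit, and the values below cannot settle whether they mark pairs. Of 28 pairs of same-numbered libraries, 9 had deviations correlated above 0.1 (range -0.49 to 0.34), and in 5 the library correlated best with its own number. With the replicate block, Dredd in wild type was lost (adjusted p = 0.0759) and Tak1 in wild type passed (adjusted p = 0.0424), and counts of calls stayed within 1.5 times. Counts were lowest for pirk and Fadd, with as few as 22 and 48 counts in a library.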

Other observations

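Injured Reldel/Reldel replicate 1, the library with 1858 CPM of summed neuron markers, held the highest value of its group for Tab2 (54.7 CPM), key (87.4 CPM), ben (99.8 CPM) and casp (128.5 CPM), and the lowest for imd (12.7 CPM), Dredd (35.0 CPM) and Diap2 (77.7 CPM). For Fadd, Tak1 and pirk it lay inside the range of the other 3 libraries. The part of this library's makeup in these values was not tested.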
